A study of Mus musculus with 24 samples.

Results

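The Hox cluster genes were the 39 Ensembl genes, of 47937 in the count table, whose mouse symbol is Hox followed by a, b, c or d and a number from 1 to 13. The rule used names and no measured value. The *Hoxa* cluster holds 11 of them over 105.3 kb of chromosome 6, *Hoxb* 10 over 173.9 kb of chromosome 11, *Hoxc* 9 over 115.8 kb of chromosome 15, and *Hoxd* 9 over 96.8 kb of chromosome 2. By number, which follows their order along a cluster, 8 are anterior (1 to 3), 15 central (4 to 8) and 16 posterior (9 to 13). Counts were high enough for a test in 29 members (10 in *Hoxa*, 9 in *Hoxb*, 9 in *Hoxc* and 1 in *Hoxd*), among 18565 genes tested. The other 10 had fewer than 10 counts in every library, and 6 of those (*Hoxd1*, *Hoxd3*, *Hoxd9*, *Hoxd10*, *Hoxd11* and *Hoxd12*) had no count in any.

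Total RNA was sequenced from 24 cultures of mouse embryonic fibroblasts (MEFs), 3 biological replicates in each of 8 conditions, in which up to 6 enzymes that methylate lysine 9 of histone H3 (H3K9) were mutated. All cells carry a conditional *Eset1* (*Setdb1*) allele and a tamoxifen-inducible Cre recombinase, and all descend from 1 clone selected for high Cre activity. WT is this line without 4-hydroxytamoxifen (4-OHT). *E1* is the same line after 1 µM 4-OHT, which deletes *Eset1*, followed by culture without the drug. *E2* is a clone with mutated *Eset2* (*Setdb2*) without 4-OHT, and *E1E2* is that clone with 4-OHT. *E1 S1S2* adds *Suv39h1* and *Suv39h2* mutations to *E1*, and *6KO1* adds *Eset2*, *G9a* (*Ehmt2*) and *Glp* (*Ehmt1*) mutations to *E1 S1S2*. In the other series, *E1E2 G9Gl* adds *G9a* and *Glp* mutations to *E1E2*, and *6KO2* adds the *Suv39h* mutations. *E2* and these 4 compound lines were made with CRISPR/Cas9, and the compound lines were sampled after 4-OHT. Each of these lines is 1 clone, so mutation and clone cannot be told apart. Exposure to 4-OHT and loss of *Eset1* cannot be told apart either. After the CRISPR/Cas9 step, the authors also re-introduced an inducible Cre construct and kept the lines under puromycin, a further difference that cannot be separated. The treatment field of the labels names 4-OHT for every sample, while the titles mark WT and *E2* as controls, and the titles were followed.

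Hox genes encode homeodomain transcription factors that give cells their position along the body and limb axes, and the genes in a cluster are switched on in the order in which they lie. Fibroblasts keep the Hox pattern of their site of origin in culture. Polycomb complexes, which methylate H3K27, hold unused Hox genes silent, and Trithorax complexes, which methylate H3K4, keep used ones active. H3K9 methylation marks heterochromatin, and G9a and Glp also place its dimethyl form at euchromatic genes, which they repress.

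Promoter sequences are shown for 4 members. *Hoxd8* was the one *Hoxd* gene with enough counts for a test and was near 0 in 3 mutants, *Hoxd9* lies 4.41 kb away with no count in any library, *Hoxd13* lies at the end of the same cluster and had counts in a few mutants, and *Hoxa13* changed in 3 mutants. Each run is the 250 bases before the RefSeq start in GRCm38.p6, 5′ to 3′ on the gene's strand, with CG dinucleotides in capitals.
Hoxd8 (chr2:74704365-74704614, plus strand): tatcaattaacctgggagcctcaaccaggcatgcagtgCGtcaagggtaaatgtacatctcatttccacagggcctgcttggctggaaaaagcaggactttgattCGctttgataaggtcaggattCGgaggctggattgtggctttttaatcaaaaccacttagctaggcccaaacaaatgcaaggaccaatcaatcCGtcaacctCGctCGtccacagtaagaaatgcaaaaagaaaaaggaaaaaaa
Hoxd9 (chr2:74697513-74697762, plus strand): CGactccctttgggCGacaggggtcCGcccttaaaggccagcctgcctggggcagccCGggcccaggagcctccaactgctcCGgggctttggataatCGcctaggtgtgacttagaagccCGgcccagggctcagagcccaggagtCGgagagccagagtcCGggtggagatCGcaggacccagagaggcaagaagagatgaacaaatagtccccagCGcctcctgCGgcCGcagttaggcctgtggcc
Hoxd13 (chr2:74667975-74668224, plus strand): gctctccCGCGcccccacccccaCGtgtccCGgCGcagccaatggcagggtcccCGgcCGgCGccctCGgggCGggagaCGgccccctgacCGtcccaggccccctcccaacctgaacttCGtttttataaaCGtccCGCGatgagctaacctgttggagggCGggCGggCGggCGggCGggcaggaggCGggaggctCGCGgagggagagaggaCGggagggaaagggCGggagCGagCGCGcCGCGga
Hoxa13 (chr6:52260881-52261130, minus strand): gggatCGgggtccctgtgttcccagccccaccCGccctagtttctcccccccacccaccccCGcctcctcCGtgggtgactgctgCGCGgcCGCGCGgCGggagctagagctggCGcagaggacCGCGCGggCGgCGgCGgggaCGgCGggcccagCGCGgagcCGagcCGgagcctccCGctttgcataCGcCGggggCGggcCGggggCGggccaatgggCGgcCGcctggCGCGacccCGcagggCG
The *Hoxd8* run has 6 CG dinucleotides and 44.4% G or C, close to the median of 6 over all 32851 RefSeq promoters of this length, whereas *Hoxd9* has 13, *Hoxd13* 31 and *Hoxa13* 35 with 80.0% G or C. Among all promoters, 53.7% have no more CG than *Hoxd8* and 97.4% no more than *Hoxa13*. RefSeq held 24 promoters of 22 Hox genes, with a median of 12.5 CG and a range of 2 to 35. Searched on both strands, the letters TATAAA occurred in 4 of the 24 (12.4% of all promoters), CCAAT in 14 (33.8%) and TGATTNAT, a motif bound by Hox proteins with Pbx partners, in 2 (2.82%). These matches are descriptions of the letters and not of bound sites.

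The libraries held 24737307 to 37419816 counts, of which 19541909 to 31489070 fell on genes and 4383 to 6919 on Hox genes (0.01654 to 0.02415% of the gene counts). One WT library, replicate 2, stood apart. The chi-square per gene between it and the other WT libraries was 57.0 to 68.3, against 2.24 to 25.2 in all other pairs of replicates. Values without it are given where a call depends on it. Counts over a whole gene do not test for a frameshift or a deleted exon. Of the targeted genes, *Setdb1* was at -0.57 in *E1* and -1.19 in *E1E2 G9Gl* (log2 fold change), *Setdb2* -1.36 in *E2*, *Ehmt2* -1.33 in *6KO1*, *Suv39h1* -1.14 in *E1 S1S2*, and *Suv39h2* 0.76 in *E1 S1S2*, in which it is mutated. *Setdb1* was as low in *E2* (-0.31) as in *E1E2* (-0.31) and so does not separate the clone without 4-OHT from the clone with it. Fibroblast markers were present in every library, with a summed level of 10 genes of 167400 to 212900 normalised counts in WT and 93180 to 105600 in *6KO1*. Of the 9 tested, 5 fell in *6KO1* past the threshold given below, where 10.2% of all genes fell. Summed markers of other cell types differed between lines. The 6 epithelial genes summed to 33.0 to 50.2 in WT, 656 to 693 in *6KO1* and 589 to 621 in *6KO2*. The other mutants were above WT too, at 132 to 167 in *E1*, 219 to 284 in *E2* and 127 to 184 in *E1E2*. *E1 S1S2* had 258 to 318 and *E1E2 G9Gl* 308 to 326. Of the 3 epithelial genes tested, 2 rose and 1 fell in each *6KO* line. All genes had 20.6% up and 10.2% down in *6KO1*, and 15.3% and 5.39% in *6KO2*. The 4 muscle genes summed to 30.1 to 34.7 in WT, 310 to 333 in *6KO1* and 303 to 313 in *E1E2 G9Gl*. The 4 neural genes summed to 684 to 844 in WT, 498.5 to 587.5 in *6KO1* and 3942 to 4397 in *6KO2*. The blood genes summed to 88.6 to 104 in WT and 481 to 544 in *6KO1*, the endothelial genes to 11.9 to 14.9 and 121 to 140, and the pluripotency genes to 2.93 to 18.1 over all libraries. The part of these marker changes in the Hox values was not tested, and in bulk RNA fewer cells of a type and less RNA per cell cannot be told apart.

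In WT, Hox RNA came from the *Hoxa*, *Hoxb* and *Hoxc* clusters and was nearly absent from *Hoxd*. The 8 members with the highest levels were posterior or central, and the ninth was the anterior gene *Hoxb2*. Levels of different genes were compared per kilobase of exon, as normalised counts (counts scaled by library size with TMM factors) per kb. *Hoxb9*, which patterns the thorax, was the highest member at 380 ± 9.27 (SD, n = 3) and stood at the 76.9 percentile of all tested genes. *Hoxc11*, a gene of the lower trunk and hindlimb, followed at 220 ± 28.5, *Hoxb7* at 217 ± 20.5 and *Hoxa11*, which shapes the forearm and the uterus, at 164 ± 14.1. The ranges of *Hoxc11* and *Hoxb7* overlapped, whereas *Hoxb9* lay above *Hoxc11*, and *Hoxb7* above *Hoxa11*, in all libraries. *Hoxd8* was the highest *Hoxd* gene at 7.0 ± 3.61, the 18.9 percentile.

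**Figure D1:**
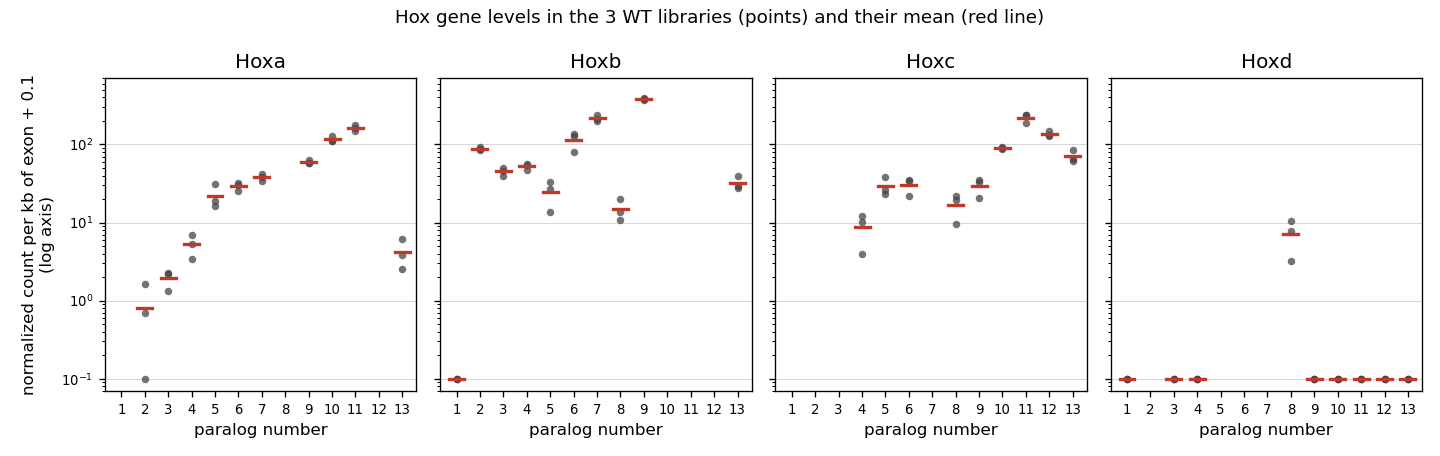
Level of the Hox genes reported here in WT as normalised counts per kb of exon plus 0.1 (log axis, so a level of 0 is drawn at 0.1), by cluster and in order of paralog number, with 1 point per library and a red line at the mean of 3 libraries. *Hoxb9* is the highest at 380 per kb, the *Hoxa*, *Hoxb* and *Hoxc* genes cover a wide range, and only *Hoxd8* of the *Hoxd* genes has counts, at 7.0 per kb.

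In *Hoxa* the mean level was higher with each paralog number from *Hoxa2* to *Hoxa11*, over *Hoxa3* at 1.84 per kb, *Hoxa4* at 5.14, *Hoxa9* at 59.9 and *Hoxa10* at 117. *Hoxa13*, 11.9 kb beyond *Hoxa11*, left this order at 4.06. The other clusters showed no such order. In *Hoxb*, *Hoxb2* was at 87.5 and *Hoxb8* at 14.7, between *Hoxb7* and *Hoxb9*, and *Hoxb13*, separated from *Hoxb9* by 74.0 kb, was at 32.0. In *Hoxc* the 4 genes numbered 10 to 13 had 70.4 to 220 per kb and the 5 numbered 4 to 9 had 8.70 to 30.3. *Hoxa2* had 0 to 5 counts per library over all conditions and *Hoxb1* 0 to 3, so neither was tested. Some Hox gene models share exons with antisense partners or with one another. Of 75-base stretches of exon, 50.5% were shared with other genes in *Hoxb3*, 32.0% in *Hoxa11*, 25.2% in *Hoxb2*, 22.5% in *Hoxa3*, 17.9% in *Hoxa7*, 11.9% in *Hoxa4*, 5.12% or less in *Hoxa9*, *Hoxb5*, *Hoxc5*, *Hoxc9* and *Hoxc10*, and none in *Hoxb7*, *Hoxb13*, *Hoxc6*, *Hoxc13*, *Hoxa13* and *Hoxd8*. The strand setting of the count is not given in the sources used here, so values of genes with shared stretches may include reads of a partner.

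Against WT, no Hox gene passed the threshold in *E1*, *E2* or *E1E2*, and in the compound mutants some members rose and others fell. A gene was called when its level differed by at least 2-fold (1 on the log2 scale) and its p, adjusted over all genes tested, was no more than 0.01 in edgeR's quasi-likelihood test. In *6KO1*, 3 of the 29 members rose and 5 fell, where 20.6% of all genes tested rose and 10.2% fell. In *E1E2 G9Gl*, 3 rose and 2 fell (16.8% and 8.41% of all genes). In *E1 S1S2*, 0 rose and 2 fell (6.65% and 5.11%), and in *6KO2*, 0 rose and 2 fell (15.3% and 5.39%). No member was called by edgeR or by DESeq2 in *E1*, *E2* or *E1E2*, where 4.26%, 6.11% and 8.73% of all genes were called in either direction. At an unadjusted p under 0.05, edgeR had 2 members up and 7 down in *E1*, 9 up and 1 down in *E2*, and 5 up and 6 down in *E1E2*. Of the 0 members called up, *E1 S1S2* had 4 and *6KO2* 5 at that level, and DESeq2 called 0 in both. Upward calls were a smaller share of the members than of all genes in each of the 4 compound mutants, and downward calls were near the background share in 3 of them and above it in *6KO1*, and neither difference was tested. All 7 comparisons share the WT libraries.

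The median log2 change of the 29 members, beside that of all genes tested, was -0.21 against -0.0048 in *E1 S1S2*, -0.17 against 0.061 in *6KO1*, 0.19 against -0.013 in *E2*, 0.33 against 0.0089 in *E1E2 G9Gl* and -0.0086 against 0.041 in *6KO2*. In *E1* it was -0.071 and in *E1E2* -0.036, beside -0.0053 and -0.0022. The clusters differed within a mutant. In *E1E2 G9Gl* the *Hoxa* median was 0.62, with 8 of 10 genes above WT, the *Hoxc* median was 0.58, with 7 of 9 above, and the *Hoxb* median was -0.091, with 3 of 9 above. In *6KO1* the medians were 0.10 for *Hoxa*, -0.51 for *Hoxb* and 0.32 for *Hoxc*. By position, the anterior, central and posterior medians were -0.29, -0.19 and 0.12 in *E1*, and 0.16, 0.26 and 0.54 in *E1E2 G9Gl*. In *6KO1* they were -0.21, 0.077 and -0.19. Called there in either direction were 1 of 4 anterior, 4 of 14 central and 3 of 11 posterior members. Of all genes tested, 20.6% rose and 10.2% fell in *6KO1*. A difference between positions was not tested, and all medians here include WT replicate 2, which stood apart.

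**Figure D2:**
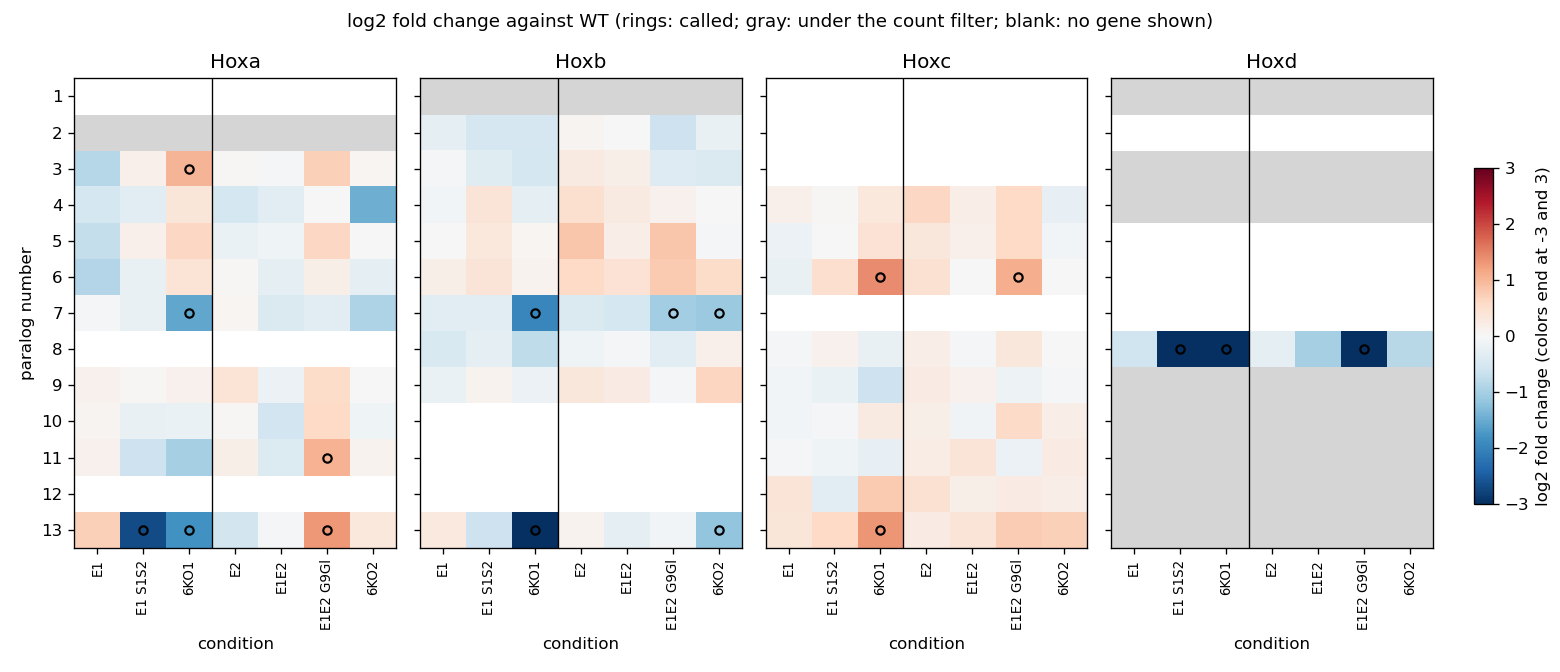
Log2 fold change of the tested Hox genes reported here against WT in the 7 mutant conditions (colour, with the scale ending at -3 and 3), by cluster and paralog number, with rings on called changes, members under the count filter in grey and numbers with no gene shown left blank. *Hoxd8* is low in *E1 S1S2*, *6KO1* and *E1E2 G9Gl*, *Hoxb13* in *6KO1*, and *Hoxa11* and *Hoxa13* are high in *E1E2 G9Gl*.

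*Hoxd8* (ENSMUSG00000027102, chr2:74704615-74707933, plus strand), a central gene expressed in the trunk and limb, lost nearly all its counts in 3 of the 7 mutants, while the other 4 had 0.498 to 0.808 of the WT level and no call. In counts, WT had 8, 23 and 28, *E1* 13, 9 and 19, *E2* 15, 15 and 14, *E1E2* 6, 11 and 11, and *6KO2* 9, 10 and 11. *E1 S1S2* had 1, 2 and 0, *6KO1* 0, 1 and 0, and *E1E2 G9Gl* 0, 0 and 0. Every library of the 3 low conditions lay below every library of the other 5. *Hoxd8* fell in *E1 S1S2* to 0.0441 of WT (95% counting interval 0.00884 to 0.135, edgeR adjusted p = 3.87e-06) and in *6KO1* to 0.0155 (0.000387 to 0.0899, edgeR adjusted p = 7.17e-07). In *E1E2 G9Gl* it was at least 16.6-fold lower than in WT, taking a floor of 3 counts over the condition (edgeR adjusted p = 1.26e-06). Intervals and floors cover counting error only, and a fold from a floor takes the counts of the other condition as exact. In *6KO2*, which carries every mutation of *E1E2 G9Gl* and 2 more, *Hoxd8* had 0.561 of WT (0.349 to 0.885, edgeR adjusted p = 0.0644), and in *E1E2* it had 0.498 (0.306 to 0.794, edgeR adjusted p = 0.0429), and neither difference was called.

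The *Hoxd8* level was thus near 0 in *E1 S1S2*, *E1E2 G9Gl* and *6KO1* and not in *6KO2*, and a link to the number of mutated enzymes was not tested. Between neighbouring steps, it fell from *E1* to *E1 S1S2* to 0.0665 (0.0132 to 0.208, edgeR adjusted p = 8.58e-05), was at least 8.29-fold lower in *E1E2 G9Gl* than in *E1E2* (edgeR adjusted p = 9.02e-05), and was at least 9.33-fold higher in *6KO2* than in *E1E2 G9Gl* (edgeR adjusted p = 7.14e-05). *6KO1* had 0.0277 of *6KO2* (0.000678 to 0.167, edgeR adjusted p = 6.47e-05), although both lines carry mutations in the same 6 genes. From 1 clone of each line, the mutation and the clone cannot be told apart here.

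The other *Hoxd* genes stayed near or at 0. *Hoxd4* had 3 counts in *E2* replicate 2 and 1 in *E1E2 G9Gl* replicate 3, and none elsewhere. *Hoxd13*, which shapes digits, had 0 counts in all WT, *E1*, *E1 S1S2* and *E1E2 G9Gl* libraries, 6, 3 and 1 in *E1E2*, 4, 4 and 6 in *6KO2*, 0, 2 and 1 in *E2*, and 0, 1 and 0 in *6KO1*. It was left out by the filter on low counts. Without that filter, edgeR tested 33872 genes, and the adjusted p of *Hoxd13* against WT was 0.00851 in *E1E2* and 6.93e-04 in *6KO2*. At this depth the remaining 6 *Hoxd* genes were not detected in any of 24 libraries.

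The 13th paralogs, which lie at the posterior end of each cluster and are best known for the digits, the tail, the urogenital tract, hair and nails, moved in different directions. *Hoxb13* (ENSMUSG00000049604, chr11:96194316-96197447, plus strand) had 61, 94 and 61 counts in WT and 0, 3 and 1 in *6KO1*. It fell in *6KO1* to 0.0170 of WT (0.00458 to 0.0441, edgeR adjusted p = 1.24e-10). In *6KO2*, with 23, 36 and 26 counts, it fell to 0.434 (0.334 to 0.560, log2 fold change -1.19 ± 0.26 SE, edgeR adjusted p = 3.98e-04). The other mutants had no call, with 82, 83 and 113 counts in *E1*, 59, 41 and 62 in *E1 S1S2*, 52, 123 and 45 in *E2*, 58, 55 and 58 in *E1E2* and 64, 57 and 50 in *E1E2 G9Gl*. In normalised counts, both *6KO* lines, *E1 S1S2* and *E1E2* lay below all WT libraries, and *E1 S1S2* had 0.651 of WT (0.527 to 0.801). *6KO1* was lower than *6KO2* (log2 fold change -4.55 ± 0.55, edgeR adjusted p = 2.1e-07).

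*Hoxa13* (ENSMUSG00000038203, chr6:52257694-52260880, minus strand) had 14, 10 and 6 counts in WT, 19, 14 and 19 in *E1*, 4, 9 and 6 in *E2*, 11, 10 and 7 in *E1E2* and 7, 10 and 17 in *6KO2*. It had 4, 1 and 0 in *E1 S1S2*, 3, 3 and 3 in *6KO1*, and 19, 19 and 25 in *E1E2 G9Gl*. The first series was thus low after the *Suv39h* step, and *E1E2 G9Gl* was high, without overlap with WT. *Hoxa13* fell to 0.145 of WT in *E1 S1S2* (0.0438 to 0.376, edgeR adjusted p = 4.76e-04) and to 0.275 in *6KO1* (0.115 to 0.594, edgeR adjusted p = 0.00314), and rose 2.48-fold in *E1E2 G9Gl* (1.58 to 3.97, edgeR adjusted p = 0.00193). The call in *6KO1* was lost without WT replicate 1 (log2 fold change -1.45) or without *6KO1* replicate 1 or 2 (-1.80 in each), and that in *E1E2 G9Gl* without WT replicate 3 (1.05) or its own replicate 3.

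*Hoxc13* (ENSMUSG00000001655, chr15:102921103-102928814, plus strand), a gene of hair and nails, was the one 13th paralog that rose in *6KO1*. Its normalised counts were 209, 153 and 159 in WT, 245, 221 and 197 in *E1*, 283, 261 and 235 in *E1 S1S2*, 190, 255 and 162 in *E2*, 228, 247 and 199 in *E1E2*, 307, 261 and 288 in *6KO2*, and 333, 265 and 278.5 in *E1E2 G9Gl*. In *6KO1* it had 443, 442 and 416 (log2 fold change 1.33 ± 0.14, edgeR adjusted p = 1.35e-08). Its mean was above WT in all 7 mutants, without overlap in 4, but past the threshold in *6KO1* alone. In one line, *6KO1*, the 4 paralogs thus ranged from near loss (*Hoxb13*) to a rise (*Hoxc13*), with *Hoxd13* at 1 count in 3 libraries.

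Of the 7th paralogs, which pattern the thoracic vertebrae, *Hoxb7* fell in 3 compound mutants and *Hoxa7* in *6KO1* alone. *Hoxb7* (ENSMUSG00000038721, chr11:96286623-96290162, plus strand) had normalised counts of 324, 370 and 309 in WT, 249, 247 and 292 in *E1*, 242, 305 and 264 in *E1 S1S2*, 239, 233 and 271 in *E2*, and 227, 241 and 226 in *E1E2*. It had 151, 179 and 159 in *E1E2 G9Gl*, 146, 140 and 176 in *6KO2*, and 72.1, 94.0 and 93.9 in *6KO1*. All 21 mutant libraries lay below all WT libraries, and *6KO1* lay below all others. *Hoxb7* fell in *6KO1* (log2 fold change -1.95 ± 0.12, edgeR adjusted p = 1.84e-12), *6KO2* (-1.12 ± 0.12, edgeR adjusted p = 2.17e-08) and *E1E2 G9Gl* (-1.04 ± 0.12, edgeR adjusted p = 5.19e-08). The last call was lost without WT replicate 2 (-0.96) or without its own replicate 1 (-0.98). *Hoxa7* (ENSMUSG00000038236, chr6:52214491-52221854, minus strand) had 119, 96.8 and 109 in WT and 31.7, 47.9 and 29.3 in *6KO1*, where it fell (-1.57 ± 0.18, edgeR adjusted p = 6.01e-08). *E1* had 104.5, 113.5 and 96.7, *E1 S1S2* 93.9, 89.7 and 93.5, *E2* 96.4, 123 and 116, *E1E2* 73.9, 80.8 and 86.8, and *E1E2 G9Gl* 68.0, 85.6 and 106, which overlapped WT. In *6KO2* it had 69.3, 46.9 and 54.1, below WT in every library but short of the fold minimum (-0.92 ± 0.18, edgeR adjusted p = 7.99e-05).

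*Hoxc6* (ENSMUSG00000001661, chr15:102998257-103011881, plus strand), a thoracic gene, rose in *6KO1* and *E1E2 G9Gl*. Its normalised counts were 85.3, 52.1 and 81.3 in WT, 221, 163 and 201 in *6KO1*, and 181, 138 and 141 in *E1E2 G9Gl*. *6KO2*, with 75.5, 73.2 and 69.6, stayed within the WT range. *E1* had 64.5, 60.2 and 61.6, *E1 S1S2* 97.1, 109 and 104, *E2* 89.2, 121 and 84.4, and *E1E2* 67.0, 80.8 and 67.2. The log2 fold change was 1.42 ± 0.16 in *6KO1* (edgeR adjusted p = 4.74e-08) and 1.09 ± 0.17 in *E1E2 G9Gl* (edgeR adjusted p = 5.21e-06). Without WT replicate 2, the lowest WT library, it was 1.22 in *6KO1*, which kept the call, and 0.88 in *E1E2 G9Gl*, which lost it, as did leaving out *E1E2 G9Gl* replicate 1 (0.94).

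*Hoxa11* (ENSMUSG00000038210, chr6:52242106-52245810, minus strand) had the highest level of the *Hoxa* genes in WT and rose in *E1E2 G9Gl* alone. Its normalised counts were 408, 370 and 344 in WT and 777, 772 and 758 in *E1E2 G9Gl* (log2 fold change 1.04 ± 0.093, edgeR adjusted p = 9.8e-10, and 0.98 without WT replicate 3). In *E1 S1S2* and *6KO1* it lay below WT without overlap but short of the fold minimum, with 262, 250 and 217 in *E1 S1S2* (-0.62, edgeR adjusted p = 1.19e-05) and 195, 181 and 187 in *6KO1* (-0.99, edgeR adjusted p = 6.3e-09). *E1* had 416, 387 and 414, *E2* 365, 496 and 410, *E1E2* 282, 260 and 304, and *6KO2* 408, 426 and 381. Its antisense partner *Hoxa11os*, which shares exon sequence with it, was at 0.71 in *E1E2 G9Gl* and -1.34 in *E1 S1S2* (log2 fold change), so the reads of each may include the other's.

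*Hoxa3* (ENSMUSG00000079560, chr6:52169062-52213336, minus strand), needed for the thymus and parathyroid, had the largest adjusted p among the calls against WT. It had 12, 8 and 13 counts in WT and 30, 22 and 22 in *6KO1*, which did not overlap (log2 fold change 1.03 ± 0.30, edgeR adjusted p = 0.00387). *E1* had 9, 3 and 7, *E1 S1S2* 12, 15 and 15, *E2* 12, 9 and 10, *E1E2* 8, 13 and 9, *E1E2 G9Gl* 11, 17 and 18, and *6KO2* 10, 12 and 9. The call was lost with DESeq2 (1.04), with factors from genes and repeats (0.98), without the filter on low counts (0.99), with only the libraries compared (1.02), without WT replicate 2 (0.78) and without *6KO1* replicate 1 (0.88).

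**Figure D3:**
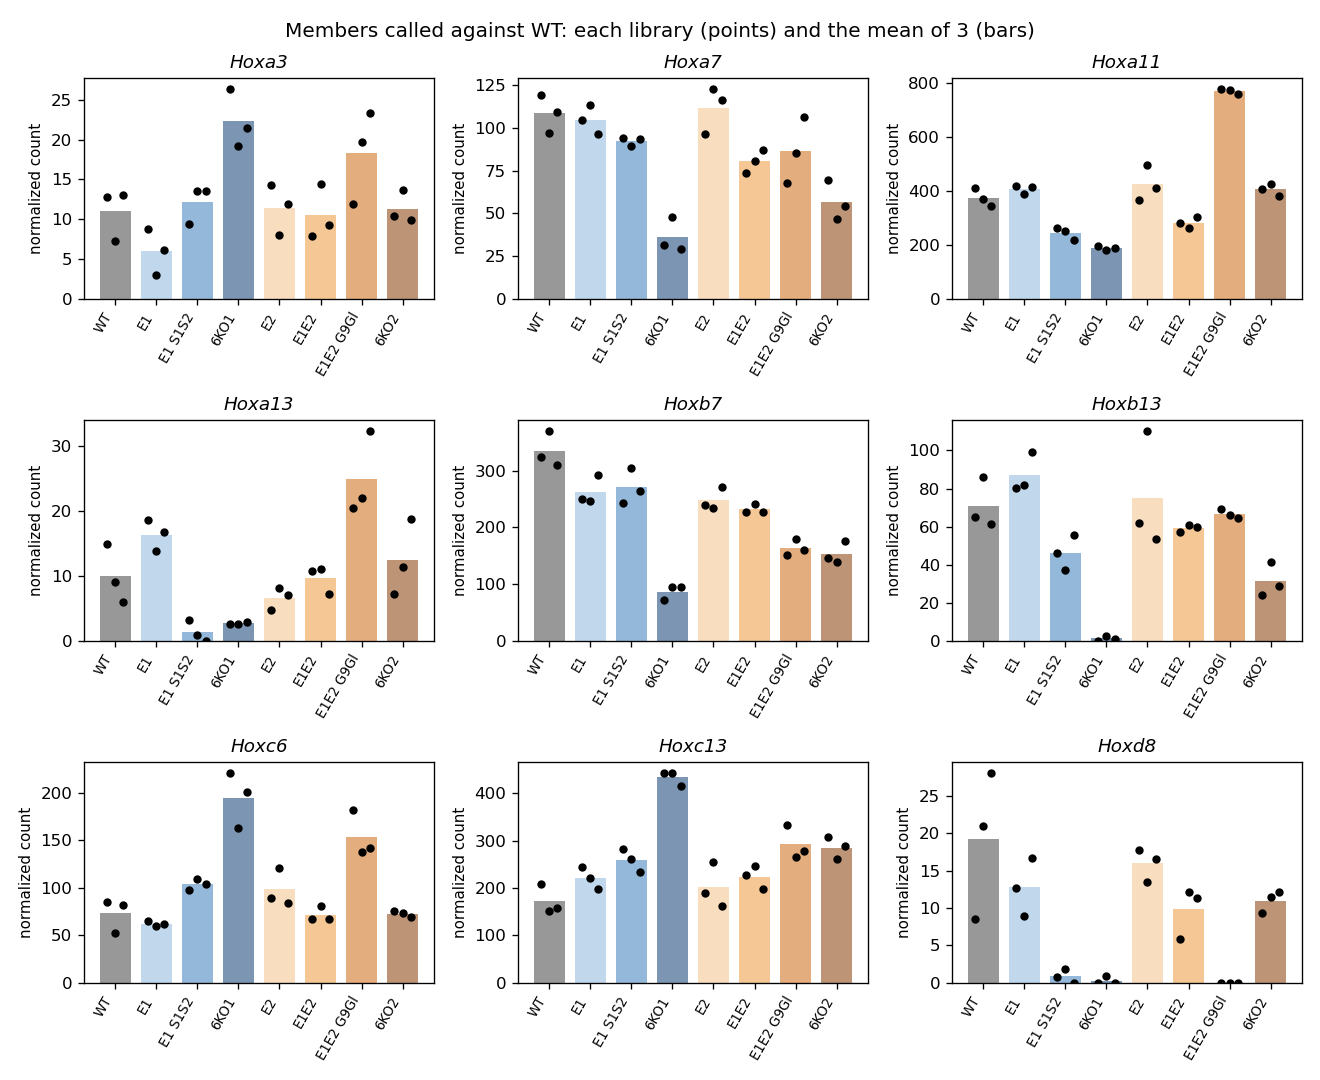
Normalised counts of the 9 Hox genes called against WT in at least 1 mutant, 1 panel per gene, with 1 point per library in each of the 8 conditions and bars up to the mean of 3 libraries. *Hoxd8* is at or near 0 in *E1 S1S2*, *6KO1* and *E1E2 G9Gl*, *Hoxb13* in *6KO1*, and *Hoxb7* is below WT in all mutants.

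Of the 29 members tested, 9 were called against WT, in 17 pairs of gene and mutant, and the other 20 were not called in any mutant. The shares of all genes called ran from 4.26% in either direction in *E1* to 20.6% up and 10.2% down in *6KO1*. The share of all genes called in at least 1 mutant was not computed, so the 9 stand without a background. Leaving out WT replicate 2 kept 14 of the 17 calls and lost *Hoxa3* in *6KO1* and *Hoxc6* and *Hoxb7* in *E1E2 G9Gl*. Of the 20, *Hoxa4* had the widest range of log2 change, from -1.46 to 0.35, at 2 to 14 counts per library in WT and both *6KO* lines. *Hoxb9*, the highest member, ranged from -0.19 to 0.65, with normalised counts of 982.5, 953 and 1001 in WT, 885, 833 and 855.5 in *E1*, 1094, 1016 and 1053 in *E1 S1S2*, 869.6, 877 and 870.4 in *6KO1*, 1304, 1172 and 1262 in *E2*, 1255, 1095 and 1105 in *E1E2*, 1505, 1581 and 1513 in *6KO2*, and 948, 910.0 and 964 in *E1E2 G9Gl*. It was thus above all WT libraries in 4 mutants and below them in *E1* and *6KO1*, by less than the fold minimum. *Hoxc11* ranged from -0.25 to 0.40, with 478.5, 379 and 479 in WT, 437, 447 and 413 in *E1*, 416.5, 384 and 423 in *E1 S1S2*, 374, 347 and 402 in *6KO1*, 457, 564 and 524 in *E2*, 643.5, 527 and 584 in *E1E2*, 520.2, 592 and 468 in *6KO2*, and 401, 368 and 416 in *E1E2 G9Gl*. Of these, *E1E2* alone did not overlap WT. *Hoxb6*, with 263, 159 and 253 in WT, ranged from 0.10 to 0.79, and its lowest WT value is that of replicate 2: *E1*, at 236 to 270.5, and *6KO1*, at 210.3 to 266, overlapped the other WT libraries. The neighbours of *Hoxb7* were not called in any mutant: *Hoxb6* lies 2.31 kb from it, and *Hoxb8*, 1.31 kb away, ranged from -0.76 to 0.16.

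Along the first series, *Hoxa13* and *Hoxd8* fell from *E1* to *E1 S1S2*, the step that adds the *Suv39h* mutations, and 0 members rose, where 3.74% of all genes fell and 4.31% rose. DESeq2 called 0 up as well, and edgeR had 6 members up at an unadjusted p under 0.05. *Hoxa13* fell to 0.0874 of *E1* (0.0272 to 0.217, edgeR adjusted p = 1.06e-05). From *E1 S1S2* to *6KO1*, 1 member rose and 3 fell (16.3% and 5.02% of all genes). *Hoxa7* fell (log2 fold change -1.34 ± 0.18, edgeR adjusted p = 1.11e-06), as did *Hoxb7* (-1.64 ± 0.12, edgeR adjusted p = 8.09e-11) and *Hoxb13* (to 0.0261 of *E1 S1S2*, 0.00702 to 0.0680). *Hoxc12*, a posterior gene 7.94 kb from *Hoxc13*, rose from 126, 116 and 94.4 to 284, 232 and 209 normalised counts (1.10 ± 0.16, edgeR adjusted p = 3.25e-06), a call that was lost without *6KO1* replicate 1 (0.94) or *E1 S1S2* replicate 3 (0.99). The fall of *Hoxd8* and *Hoxa13* and that of *Hoxb13*, *Hoxb7* and *Hoxa7* were thus called at different steps. *Hoxb13* was already lower at the *Suv39h* step, where *E1 S1S2* had 0.530 of *E1* (0.434 to 0.645), short of the fold minimum.

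In the second series, 0 members were called between *E2* and *E1E2* by edgeR or DESeq2, where 2.97% of all genes were called, and edgeR had 0 up and 8 down at an unadjusted p under 0.05. Between *E1E2* and *E1E2 G9Gl*, the step that adds the *G9a* and *Glp* mutations, 5 members rose and 1 fell (14.8% and 6.78% of all genes). *Hoxa10*, which patterns the lumbar region and the uterus, rose from 293, 230 and 247 to 593, 547 and 604 normalised counts (1.18 ± 0.13, edgeR adjusted p = 3.39e-08). *Hoxa11* rose from 282, 260 and 304 to 777, 772 and 758 (1.45 ± 0.096, edgeR adjusted p = 5.81e-12). *Hoxa13* rose as well (1.33 ± 0.35, edgeR adjusted p = 0.00203, lost without replicate 3 of either line, at 1.12 and 1.16), and *Hoxc6* rose (1.10 ± 0.17, edgeR adjusted p = 5.43e-06, 0.96 and lost without *E1E2 G9Gl* replicate 1). *Hoxa5* and *Hoxa3* had no call at this step, at 0.75 and 0.78 on the log2 scale.

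From *E1E2 G9Gl* to *6KO2*, which adds the *Suv39h* mutations, 1 member rose and 2 fell (7.19% and 9.12% of all genes). *Hoxd8* rose, as given above, *Hoxc6* fell (-1.08 ± 0.17, edgeR adjusted p = 1.16e-05) and *Hoxb13* fell (-1.10 ± 0.27, edgeR adjusted p = 0.0014). The *Hoxc6* call was lost without *E1E2 G9Gl* replicate 1 (-0.94) and the *Hoxb13* call without *6KO2* replicate 1 (-0.93). *Hoxa11* had 777, 772 and 758 normalised counts before this step and 408, 426 and 381 after it, short of the fold minimum (-0.93, edgeR adjusted p = 1.51e-08).

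The 2 lines with all 6 genes mutated differed at 6 of the 29 members. In *6KO1* relative to *6KO2*, 2 were higher and 4 lower (9.77% and 7.1% of all genes). *Hoxc6* (1.42 ± 0.16, edgeR adjusted p = 1.29e-07) and *Hoxa4* (1.82 ± 0.54, edgeR adjusted p = 0.00599) were higher. *Hoxa4* rested on 14, 11 and 10 counts against 3, 2 and 3, and its call was lost without any 1 of these 6 libraries (1.68 to 1.91). *Hoxa11* (-1.11 ± 0.10, edgeR adjusted p = 2.47e-09), *Hoxa13* (0.220 of *6KO2*, 0.0927 to 0.468, edgeR adjusted p = 8.48e-04, lost without *6KO2* replicate 3 at a log2 fold change of -1.72), *Hoxb13* and *Hoxd8* were lower. *Hoxb7* did not pass the threshold between the lines, at 72.1 to 94.0 against 140 to 176 normalised counts.

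Whether a step differed between backgrounds was tested directly. For the effect of 4-OHT in the *Eset2*-mutant clone relative to that in the WT line, edgeR and DESeq2 called 0 members (3.43% of all genes), with 1 up and 6 down at an unadjusted p under 0.05. For the *Suv39h* step, the change from *E1E2 G9Gl* to *6KO2* minus that from *E1* to *E1 S1S2*, 2 members were higher and 4 lower (7.71% and 8.76% of all genes). *Hoxd8* fell in the first series and rose in the second (difference 10.19 ± 1.29 on the log2 scale, edgeR adjusted p = 1.15e-06), a fitted value that rests on 0 counts in *E1E2 G9Gl*. *Hoxa13* fell by 3.41 in the first series and had -0.99 in the second (difference 2.42 ± 0.67, edgeR adjusted p = 0.00417). *Hoxc6* had 0.73 in the first and fell by 1.08 in the second (difference -1.81 ± 0.24, edgeR adjusted p = 1.51e-06). *Hoxa5* (0.85 and -0.64), a gene needed for the lung, *Hoxb5* (0.29 and -0.88) and *Hoxa3* (0.99 and -0.67) had differences of -1.49, -1.18 and -1.66 (edgeR adjusted p = 6.43e-04, 0.0019 and 0.0081). The *Hoxa13* difference lost its call without *6KO2* replicate 3 or without *E1 S1S2* replicate 2 or 3 (lowest value 1.91), and the *Hoxa3* difference with DESeq2, with the replicate block, with only the libraries compared and without any of 9 libraries (values from -1.73 to -1.36). In the 2 series the step was made in different clones with different mutations before it.

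The summed level of each cluster was set beside that in WT. Sums are of normalised counts per kb with the SD over 3 libraries. Ratios to WT carry an SD that combines the spread of the 3 mutant and the 3 WT libraries, with no test. The *Hoxa* sum was 455 ± 23.6 in WT, 1.64 ± 0.085 of WT in *E1E2 G9Gl*, 0.80 ± 0.049 in *6KO1*, 0.80 ± 0.061 in *E1 S1S2* and 0.76 ± 0.047 in *E1E2*, none overlapping WT, and it overlapped WT in *E1*, *E2* and *6KO2*. The *Hoxb* sum was 968 ± 34.9 in WT and between 0.90 and 1.16 of WT in all mutants other than *6KO1*, at 0.71 ± 0.033, and it overlapped WT in *E1 S1S2* and *E1E2* alone. The *Hoxc* sum was 631 ± 79.9 in WT and between 0.99 and 1.23 of it other than in *6KO1*, at 1.37 ± 0.20, and it overlapped WT in *E1*, *E1 S1S2* and *E1E2*. In *6KO1*, the *Hoxa* and *Hoxb* sums were thus below WT and the *Hoxc* sum above. The sums weigh the members with high levels most. Of the tested *Hoxa* genes, 6 were above WT in *6KO1* and 4 below. Among those below, *Hoxa11* went from 164 to 82.1 per kb and *Hoxa7* from 37.7 to 12.6. In *Hoxb*, 2 were above and 7 below, and in *Hoxc* 6 above and 3 below. The *Hoxd* sum, 7.0 ± 3.61 in WT, was there all *Hoxd8*, and was 0.045, 0.032 and 0.021 of WT in *E1 S1S2*, *6KO1* and *E1E2 G9Gl*. In *6KO1* it came from 1 count each of *Hoxd8* and *Hoxd13*, and in *E1E2 G9Gl* from 1 count of *Hoxd4*. *Hoxd13* gave 2.06 per kb of the sum in *6KO2*.

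**Figure D4:**
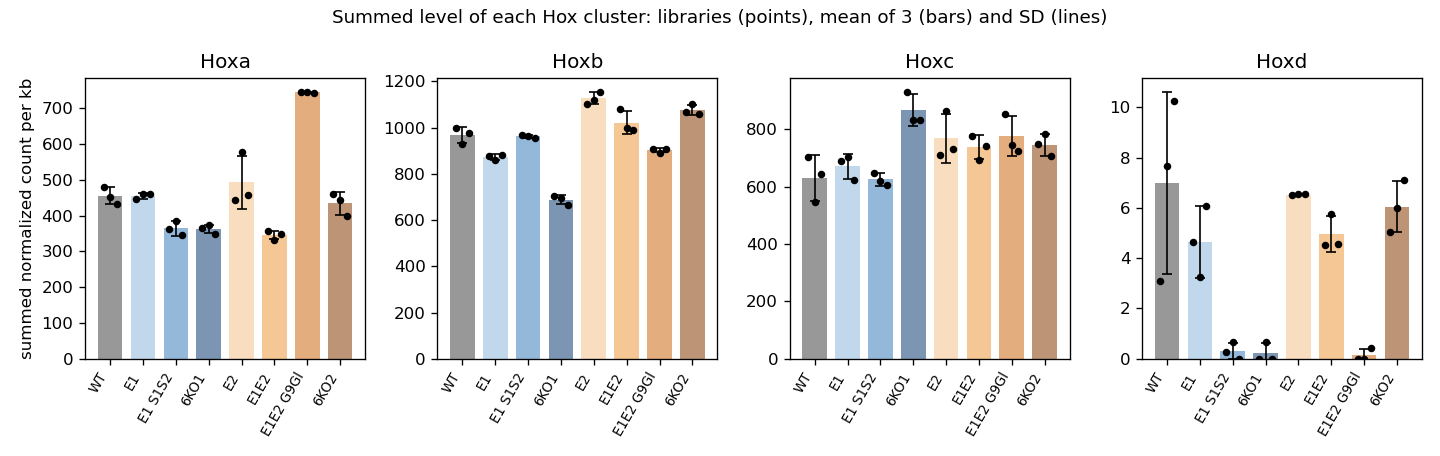
Summed level of each Hox cluster in the 8 conditions, in normalised counts per kb, with 1 point per library, bars at the mean of 3 libraries and lines for the SD. *Hoxa* is highest in *E1E2 G9Gl* at 1.64 of WT, *Hoxc* in *6KO1* at 1.37, *Hoxb* is lowest in *6KO1* at 0.71, and *Hoxd* drops to 0.045 or less in 3 mutants.

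Other transcripts within the clusters were compared by a list of 50, of which 19 were tested. Of these, 4 fell in *E1 S1S2*, while 5 rose (4 by DESeq2) and 2 fell in *6KO1*. *E1E2 G9Gl* had 3 up (1 by DESeq2) and *6KO2* had 4 up. Across all genes tested, *6KO1* had 20.6% up and 10.2% down, and *E1 S1S2* had 6.65% up and 5.11% down. For *6KO2* the shares were 15.3% up and 5.39% down, beside 16.8% up and 8.41% down for *E1E2 G9Gl*. *E1*, *E2* and *E1E2* had 4.26%, 6.11% and 8.73% called in either direction. A difference from these shares was not tested. In *E1*, *E2* and *E1E2*, edgeR and DESeq2 called 0, and edgeR had 1, 0 and 0 up and 2, 2 and 3 down at an unadjusted p under 0.05. Of the tested names, 6 lie wholly within the exons of *Hotairm1* or *Hoxa11os* and are not independent of them. *Hotairm1*, an antisense RNA of the *Hoxa* cluster, rose in *6KO1* from 31.5 ± 3.61 to 71.1 ± 2.01 normalised counts (1.17 ± 0.17, edgeR adjusted p = 1.71e-06). *Hoxa11os* fell in *E1 S1S2* from 137 ± 10.4 to 53.8 ± 6.48 (-1.34 ± 0.12, edgeR adjusted p = 2.06e-09). *Gm27477* rose in both *6KO* lines, from 12 ± 1.91 to 43.5 ± 7.23 and 39.2 ± 5.12. *Hotair*, an RNA of the *Hoxc* cluster, was not called in any mutant (-0.86 to 0.81).

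Genes that act with Hox proteins or control Hox genes were compared by lists. Of 9 TALE genes, the Pbx, Meis and Pknox partners of Hox proteins on DNA, 2 rose in *E1 S1S2*, 2 rose and 1 fell in each *6KO* line, and 0 were called by edgeR or DESeq2 in the others, where edgeR had 2 to 5 up and 2 to 5 down at an unadjusted p under 0.05. *Meis3* rose in *6KO1* from 187 ± 32.4 to 787 ± 9.81 (2.08 ± 0.096, edgeR adjusted p = 6.12e-15) and *Pbx4* from 55.2 ± 13.7 to 185 ± 8.87 (1.76 ± 0.18, edgeR adjusted p = 5.68e-09). *Meis2* fell in *6KO1* (-1.06 ± 0.073) and *6KO2* (-1.10 ± 0.074), from 1028 ± 104 to 492 ± 37.04 and 481 ± 18.2. The 3 calls of 9 in *6KO1* stand beside 20.6% of all genes up and 10.2% down, and those in *6KO2* beside 15.3% and 5.39%. Those in *E1 S1S2* stand beside 6.65% and 5.11%. The shares in *E1E2 G9Gl* were 16.8% and 8.41%, and those in *E1*, *E2* and *E1E2* were 4.26%, 6.11% and 8.73% in either direction.

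Of 11 Trithorax genes, 0 were called in any mutant by edgeR or DESeq2, with 0 to 3 up and 1 to 6 down at an unadjusted p under 0.05. Of 20 Polycomb genes, 3 rose and 1 fell in *6KO1*, 2 rose and 1 fell in *E1E2 G9Gl*, 1 rose and 1 fell in *6KO2*, 1 rose in each of *E1*, *E2* and *E1E2*, and 0 were called in *E1 S1S2*, where edgeR had 5 up and 6 down at an unadjusted p under 0.05 and DESeq2 called 0. *Cbx7*, which reads H3K27 methylation, rose from 8.24 ± 0.787 in WT to 159 ± 19.5 in *E1E2 G9Gl* (4.25 ± 0.21, edgeR adjusted p = 1.55e-14). *Cbx2*, another reader, fell in *6KO1* from 365 ± 74.7 to 123 ± 22.3 (-1.56 ± 0.13). *Ring1* rose in *6KO1* (1.05) and *E1E2 G9Gl* (1.31). *Rnf2*, which like *Ring1* acts in H2A ubiquitylation, fell in *E1E2 G9Gl* (-1.27) and *6KO2* (-1.05). *Ezh1*, an H3K27 methyltransferase, rose in *6KO1* (1.16 ± 0.084).

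Of 10 tested genes upstream of Hox genes, which make, degrade or sense retinoic acid, 5 rose in *6KO1*, 4 in *6KO2* and 3 in *E1E2 G9Gl*. In *E1 S1S2* 2 rose, in *E1E2* 2 (1 by DESeq2), and in *E1* and *E2* 0, and 0 fell in any mutant by edgeR or DESeq2. Of all genes, 20.6% rose and 10.2% fell in *6KO1*, and 15.3% and 5.39% in *6KO2*. The shares were 16.8% and 8.41% in *E1E2 G9Gl* and 6.65% and 5.11% in *E1 S1S2*. In either direction they were 4.26% in *E1*, 6.11% in *E2* and 8.73% in *E1E2*. At an unadjusted p under 0.05, edgeR had 0 to 2 down in each mutant, and 1 up in each of *E1* and *E2*, where DESeq2 called 0. *Aldh1a1*, which makes retinoic acid, went from 2.01 ± 1.11 normalised counts in WT to 9353 ± 25.6 in *E1E2 G9Gl* (edgeR adjusted p = 2.22e-22) and 197 ± 15.3 in *6KO2*. *Rarb*, a retinoic acid receptor, went from 3.71 ± 2.35 to 149 ± 1.69 in *E1E2 G9Gl* (edgeR adjusted p = 1.03e-12). *Cyp26b1*, which degrades retinoic acid, had 0 to 2 counts per library in WT, 22 to 24 in *E1E2 G9Gl* and 25 to 27 in *6KO1*. The line with the highest *Aldh1a1* and *Rarb* was the one in which *Hoxa10* and *Hoxa11* were highest, and a link between them was not tested. *Cdx1*, *Cdx2*, *Cdx4*, *Rxrg* and *Aldh1a2* were left out by the filter on low counts.

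Of 16 tested positional genes outside the Hox clusters, 2 rose and 6 fell in *6KO1*, 2 and 5 in *E1 S1S2*, 2 and 2 in *E1E2 G9Gl* and *6KO2*, and 2 and 1 in *E2*, while 2 rose in *E1E2* and 1 in *E1*. *Tbx5*, a forelimb gene, fell in *6KO1* from 248 ± 24.6 to 8.34 ± 3.74 (-4.85 ± 0.22, edgeR adjusted p = 5.1e-15) and in *E1 S1S2* to 59.4 ± 13.8. *Tbx4*, its hindlimb relative, had 8 to 22 counts per library in WT, 0 to 1 in *6KO1*, and rose in *E1E2* to 233 ± 6.93 normalised counts (3.90 ± 0.21, edgeR adjusted p = 7.29e-13). *Twist1* fell in *6KO1* from 337 ± 45.5 to 17.9 ± 6.17 (-4.21 ± 0.17, edgeR adjusted p = 4.97e-16). *Irx3* had 33 to 44 counts per library in WT, 1 in each *6KO1* library and 0 to 1 in *E1E2 G9Gl*.

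Of the protein-coding genes nearest to the clusters, up to 5 on each side, 36 were tested, and 2 rose and 5 fell in *6KO1*, 4 rose and 1 fell in *E1E2 G9Gl*, 2 and 1 in *6KO2*, and 1 and 1 in *E1E2*, while 2 rose in *E1 S1S2* and 1 in each of *E1* and *E2*. Their median log2 change was -0.36 in *6KO1* and between -0.098 and 0.0059 in the other mutants. The shares of all genes up and down were 20.6% and 10.2% in *6KO1* and 16.8% and 8.41% in *E1E2 G9Gl*. In *6KO2* they were 15.3% and 5.39%, and in *E1 S1S2* 6.65% and 5.11%. In either direction they were 8.73% in *E1E2*, 4.26% in *E1* and 6.11% in *E2*. *Hnrnpa1*, beside *Hoxc*, fell in *6KO1* (-1.68 ± 0.12) and *Hnrnpa3*, beside *Hoxd*, fell as well (-1.28 ± 0.10), both RNA-binding proteins, from WT means of 7913 ± 2299 and 8665 ± 2034 normalised counts. *Jazf1*, beside *Hoxa*, went from 1 to 2 counts per library in WT to 37 to 55 in *E1E2 G9Gl*. The genes of the 3 heterochromatin proteins *Cbx1*, *Cbx3* and *Cbx5*, which bind H3K9 methylation, lie beside *Hoxb*, *Hoxa* and *Hoxc* and had -0.68, -0.62 and -0.61 in *6KO1*, not past the threshold.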

How the data were processed

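The data are RNA-seq gene counts of 24 MEF cultures, 3 in each of 8 conditions. The authors trimmed paired 75-base reads with cutadapt 1.8.1, aligned them to GRCm38 with STAR 2.5.2b and counted them with TEtranscripts, which shares reads that map to several places, and they deposited whole-number counts per gene and repeat element without normalization. Of the table, 47937 genes were used, 1445 repeat elements entered 1 alternative and 1 malformed entry was left out. All columns were matched to a sample by name. Symbols were found for 47310 gene identifiers. The filterByExpr function of edgeR, grouped by condition, kept 18565 genes. TMM factors and the quasi-likelihood model of edgeR 4.0.16 (with limma 3.58.1 in R 4.3.3, prior degrees of freedom 6.33) were fitted to all 24 libraries with 1 coefficient per condition. Tests were two-sided with Benjamini-Hochberg adjustment in each of 15 comparisons, 7 against WT, 6 along the series and 2 interactions, and a called gene differed by 1 or more on the log2 scale with an adjusted p no higher than 0.01. SE is the fold change divided by the root of F. Libraries held 24737307 to 37419816 counts. P-values measure the spread between cultures of 1 line. Levels per kb used the union of exons in the GRCm38 annotation. Ratios of few counts carry exact 95% intervals from scipy 1.17.1, and a count of 0 was set to a floor of 3. On data simulated for *6KO1* against WT (17888 genes, 200 changed), 162 changed genes and 1 other gene were called. Members and gene lists were chosen with earlier results of these data known. Named with all library values are members called against WT, and the highest WT member of each cluster; listed genes are named by the size of their change, and further members and genes were named after their values were seen. Alternatives were DESeq2 1.42.0, RLE factors, factors from genes and repeats, no filter, genes averaging over 100 normalized counts, calls without a fold minimum, an adjusted p of 0.05, only the libraries compared, a replicate block, longest transcript length or DESeq2 size factors for cluster sums, and each library left out. The authors' ChIP and methylation data were not used here. The values of 1 member are not reported here, although it entered the fit, the counts and the sums. Figures were drawn with matplotlib 3.10.9.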

Additional observations from a re-analysis of the deposited data

Results flagged for a closer look

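The effect of adding the *Suv39h* mutations differed between the 2 series for 6 Hox genes, by an interaction term in edgeR's test (second series minus first, log2 scale). *Hoxd8* differed by 10.19, *Hoxa13* by 2.42, *Hoxa3* by -1.66, *Hoxa5* by -1.49, *Hoxb5* by -1.18 and *Hoxc6* by -1.81. The *Hoxa3* call was lost in 12 alternatives, among them DESeq2 and the replicate block, and the *Hoxa13* call in 3, each with 1 library left out. The *Hoxd8* value rests on 0 counts in *E1E2 G9Gl*. Clone and earlier mutations differ between the series, so their parts cannot be told apart.

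*Hoxd13*, left out of the main test for low counts, had 14 counts over the *6KO2* libraries and 10 over the *E1E2* libraries, against 0 over the WT libraries.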

How the results depend on the processing

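Of 270 recomputed Hox fold changes under alternatives other than left-out libraries, 262 kept direction and call, 8 lost the call and 0 reversed. With each library left out in turn, 1018 of 1056 kept both, 38 lost the call and 0 reversed. Of 44 called fold changes, RLE factors kept 44, DESeq2 42, and no filter and factors from genes and repeats 43 each. The 8 losses were *Hoxa3* in *6KO1* (4), the *Hoxa3* interaction (3) and *Hoxa13* in *E1E2 G9Gl* (1). Replicate numbers did not pair the libraries (correlations of deviations from -0.291 to 0.24, above 0.1 throughout in 0 of 28 pairs of conditions). The replicate block kept 43 of 44 calls and lost the *Hoxa3* interaction (-1.67).

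Counts of called Hox genes moved under these settings, given as main to alternative. Without a fold minimum, members up went from 0 to 2 in *E1 S1S2*, 3 to 5 in *6KO1*, 0 to 5 in *E2*, 0 to 3 in *E1E2*, 3 to 11 in *E1E2 G9Gl* and 0 to 3 in *6KO2*, and members down from 2 to 5 in *E1 S1S2*, 5 to 9 in *6KO1*, 0 to 1 in *E2*, 0 to 3 in *E1E2* and 2 to 4 in *6KO2*. Along the series, up and down went from 0 to 4 and 2 to 5 (*E1 S1S2* against *E1*), 1 to 6 and 3 to 6 (*6KO1* against *E1 S1S2*), 5 to 8 and 1 to 6 (*E1E2 G9Gl* against *E1E2*), 1 to 4 and 2 to 10 (*6KO2* against *E1E2 G9Gl*) and 2 to 6 and 4 to 10 (*6KO1* against *6KO2*), and down from 0 to 3 (*E1E2* against *E2*). The 4-OHT interaction went from 0 to 2 down, and the *Suv39h* interaction from 2 to 5 up and 4 to 8 down. With means above 100 alone, 28 of the 44 calls were not tested and 16 of 16 others were kept. Members down then went from 2 to 0 in *E1 S1S2*, 5 to 2 in *6KO1* and 2 to 1 in *E1E2 G9Gl* and *6KO2*. Along the series, down went from 2 to 0, 3 to 1, 1 to 0, 2 to 1 and 4 to 1, up from 5 to 3, 1 to 0 and 2 to 1, and the *Suv39h* interaction from 2 to 0 up and 4 to 1 down. With only the libraries compared, *Hoxa13* and *Hoxd8* were not tested in 10 calls, and members down went from 2 to 0 in *E1 S1S2*, 5 to 3 in *6KO1* and 2 to 1 in *E1E2 G9Gl*. Along the series, down went from 2 to 1, 1 to 0 and 4 to 2, and up from 1 to 0. Without the filter, *Hoxd13* entered: up went from 0 to 1 in *E1E2* and *6KO2* and from 1 to 2 from *E1E2 G9Gl* to *6KO2*, and down from 1 to 2 from *E1E2* to *E1E2 G9Gl*. With the longest transcript as length, the WT sum was 549 in *Hoxa* and 1035 in *Hoxb*, in place of 455 and 968.

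With 1 library left out, counts ranged from 0 to 1 (down in *E1* and *E1E2*, up in *E2*, up from *E1* to *E1 S1S2* and from *E1 S1S2* to *6KO1*), 1 to 4 and 1 to 2 (up and down in *E1E2 G9Gl*), 1 to 3 (down from *E1E2 G9Gl* to *6KO2*) and 1 to 2 (up in *6KO1* against *6KO2*, and up in the *Suv39h* interaction). The TMM and other factors moved the median of all genes by 0.053 at most. Depth limits *Hoxd8*, *Hoxa13*, *Hoxa3* and *Hoxa4*, with at most 30 counts per library, and the 10 untested members.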
